A study of Mus musculus with 35 samples.

Results

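Unsorted cells of mouse small intestinal organoids were compared with YFP-marked progeny of Lgr5 stem cells taken directly from mouse small intestine. The organoid cells came from wild-type C57BL/6 crypts of a single mouse, grown in Matrigel with EGF, R-spondin and Noggin, and were harvested at 2 passages of the same culture. The YFP cells came from C57BL/6 mice of the genotype labelled Lgr5-YFP, in which Cre made from the Lgr5 locus opens a blocked YFP gene at Rosa26. Stem cells in which this happens, and the descendants they make from then on, carry YFP. The YFP cells were isolated from fresh crypts 5 days after the label was induced, as 5 plates. Every well held 1 sorted cell, and its messenger RNA was counted by CEL-seq, in which a random barcode on each primer marks single molecules. Wells with at least 1500 transcript counts were kept, which left 820 of the 1104 wells of both groups, in a series of 1872 wells. These were 276 and 209 wells of the organoid replicates, together 485 of 672, and 80, 78, 74, 35 and 68 wells of the YFP plates, together 335 of 432. Kept wells were summed to 1 profile per organoid passage and per YFP plate, so each test set 2 organoid profiles against 5 YFP profiles. The groups also differ in mouse, genotype, dissociation enzyme, sorting gate and the part sampled, fresh crypts against whole organoids. Culture itself cannot be told apart from these. The labels do not say whether the YFP plates came from different animals, and both organoid profiles share 1 mouse, so p-values measure only the spread between passages and between plates.

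The epithelium of the small intestine is renewed from Lgr5 stem cells at the crypt base. Their daughters divide for a short time and become absorptive enterocytes or secretory cells, which are Paneth, goblet, enteroendocrine and tuft cells. Organoids hold the same lineages but lack the connective tissue, blood supply, immune cells, food and microbes of the gut, and their stem cells live on growth factors added to the medium.

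Summed counts were 2860636 and 1553804 in the organoid replicates, against 756335, 806579, 637930, 287001 and 626189 in the YFP plates. The median kept well held 7982 and 4608 counts in the organoid replicates and between 5576 and 7739.5 in the YFP plates. Organoid replicate 2 lost 175 of its 384 wells to the minimum. Synthetic spike-in RNA took 8.12% and 10.1% of the counts in kept organoid wells, against 6.22% to 7.76% in kept YFP wells, and its part in the results was not tested. Across the 8808 genes tested, the log2 levels of the organoid replicates correlated at 0.930, those of YFP plates with each other at 0.875 to 0.948, and those of organoid replicates with YFP plates at 0.683 to 0.834. These correlations are across genes, which are not independent replicates. General epithelial genes summed to 17025 and 15988 CPM (counts in 1000000 of the scaled library) in the organoid replicates and to between 15809 and 19132 CPM in the YFP plates. Of these, Cdh1, the epithelial cadherin, had 611 and 573 CPM in organoid cells, against 537 to 664 CPM in YFP cells. Markers of other cell types were near 0 in both groups. The immune cell genes summed to 8.3 and 8.7 CPM in organoid cells and to between 30.6 and 87.7 CPM in YFP cells, and the pan-leukocyte gene Ptprc had 0.361 and 0.619 CPM in organoid cells and was at 0 in all 5 YFP plates. Blood cell genes summed to 0.4 and 1.9 CPM in organoid cells and to at most 1.6 CPM in YFP cells.

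With edgeR's quasi-likelihood test and Benjamini-Hochberg adjustment at 0.05, 1246 of 8808 genes were higher in organoid cells (14.1%) and 1062 were lower (12.1%), 26.2% in either direction. The groups did not overlap, with organoid cells higher, for 19.6% of all genes tested, and with organoid cells lower, for 18.4%. At 2-fold or more, 808 genes (9.17%) were higher and 600 (6.81%) lower. The median log2 fold change of all genes tested was -0.0083. Gene groups with high medians included sugar breakdown and the response to low oxygen, metal binding, detoxification, cholesterol synthesis and fat uptake. Groups with low medians included antigen presentation by MHC class II, Paneth cell products, gut hormones, goblet cell products and mitosis.

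**Figure D1:**
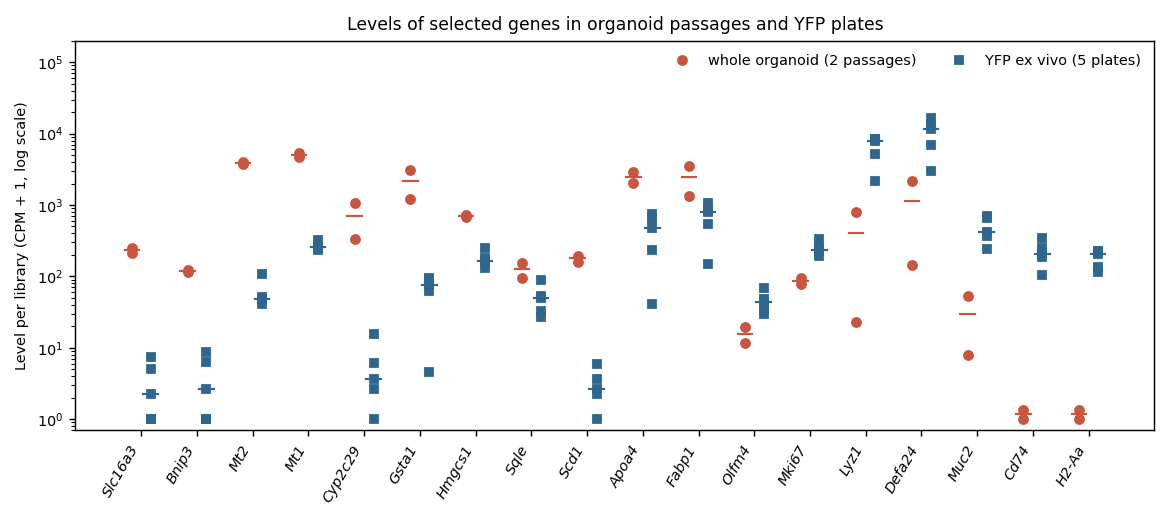
Level of 18 genes in each organoid replicate and each YFP plate, in CPM plus 1 on a log axis, with a bar at each group's median. The organoid replicates stand above all YFP plates for Slc16a3, Bnip3, Mt2, Mt1, Cyp2c29, Gsta1 and Hmgcs1, and below all of them for Muc2, Cd74 and H2-Aa.

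Promoters of 6 genes at these extremes are printed here, since a known sequence element is named for each of their pathways. Each is the 150 bases before the gene's start from RefSeq on build GRCm38.p6, read 5′ to 3′ on the gene's strand. Mt1 and Mt2 encode metallothioneins, small proteins that bind zinc and copper, and capitals mark the core of the metal response element, searched as TGCACNC or TGCGCNC on both strands.
Mt1, chr8:94178939-94179088, plus strand: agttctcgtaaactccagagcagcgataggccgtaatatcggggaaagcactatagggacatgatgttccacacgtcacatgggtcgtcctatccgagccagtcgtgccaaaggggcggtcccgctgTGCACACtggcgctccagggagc
Mt2, chr8:94172468-94172617, plus strand: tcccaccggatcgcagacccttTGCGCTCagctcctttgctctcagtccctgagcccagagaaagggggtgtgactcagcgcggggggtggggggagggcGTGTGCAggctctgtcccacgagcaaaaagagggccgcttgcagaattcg
Slc16a3 encodes the lactate exporter Mct4 and Bnip3 a mitochondrial protein of mitophagy. Both are textbook targets of the hypoxia-inducible factors, and capitals mark the core ACGTG of the element these bind, in Bnip3 as a palindrome that reads the same on both strands.
Slc16a3, chr11:120948917-120949066, plus strand: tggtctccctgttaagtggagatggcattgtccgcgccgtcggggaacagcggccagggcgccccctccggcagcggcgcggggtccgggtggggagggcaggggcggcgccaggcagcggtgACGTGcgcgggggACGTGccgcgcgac
Bnip3, chr7:138909507-138909656, minus strand: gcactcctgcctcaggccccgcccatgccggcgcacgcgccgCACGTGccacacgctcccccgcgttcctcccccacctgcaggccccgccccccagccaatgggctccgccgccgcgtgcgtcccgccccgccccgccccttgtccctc
H2-Aa and H2-Eb1 encode MHC class II chains, whose promoters are known for an inverted CCAAT box, and capitals mark CCAAT or its complement ATTGG.
H2-Aa, chr17:34287824-34287973, minus strand: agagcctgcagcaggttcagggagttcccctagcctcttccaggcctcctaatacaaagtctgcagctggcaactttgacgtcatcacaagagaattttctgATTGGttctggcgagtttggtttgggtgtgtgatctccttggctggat
H2-Eb1, chr17:34305717-34305866, plus strand: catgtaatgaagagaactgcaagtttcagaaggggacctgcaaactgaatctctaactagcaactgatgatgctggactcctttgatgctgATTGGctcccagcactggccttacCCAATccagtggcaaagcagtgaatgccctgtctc
Over the 27025 genes with such a window, 16.6% held the metal core, 12.6% held ACGTG and 27.7% held CCAAT, on either strand. ACGTG was found for 11 of the 20 called genes of glycolysis and hypoxia that had a window (55%), and CCAAT for 3 of 4 called class II genes (75%). A match of letters is a description of the window and does not show that a factor binds there.

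Organoid cells held more mRNA of nearly the whole glycolytic pathway and of known hypoxia-inducible genes. Of 24 such genes tested, 21 rose in organoid cells and none fell, against 14.1% of all genes that rose, and their median log2 fold change was 2.22. Slc16a3 had 247 and 212 CPM in the organoid replicates, against 3.97, 1.27, 6.53, 0 and 0 CPM in the YFP plates, a log2 fold change of 6.39 (SE 0.37, edgeR's adjusted p = 9.94e-07). Both organoid values lay far above every YFP plate, and a count of Slc16a3 was found in 31.2% and 28.7% of organoid wells, against 0% to 1.35% of YFP wells, when each well was thinned to 1500 counts. Ak4, a mitochondrial adenylate kinase, had 79.0 and 102 CPM in organoid cells and no count in any YFP plate, so it was at least 89.0-fold higher. Such bounds set a group without a count to 3 counts in all. Bnip3 had 114 and 121 CPM in organoid cells, against 5.29, 7.60, 0, 0 and 1.61 CPM in YFP cells (log2 fold change 5.00, SE 0.40, edgeR's adjusted p = 7.92e-06). Egln3, a prolyl hydroxylase that marks hypoxia-inducible factors for destruction, had 119 and 110 CPM in organoid cells and at most 5.29 CPM in YFP cells (log2 fold change 5.23). These 4 genes were nearly silent in YFP cells and moderate in organoid cells, with no overlap.

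The enzymes of glycolysis were already high in YFP cells and were higher in organoid cells. Gapdh had 5345 and 4276 CPM in the organoid replicates, against 953, 903, 1062, 902 and 793 CPM in the YFP plates (log2 fold change 2.38, SE 0.15, edgeR's adjusted p = 1.59e-06). Ldha, which makes lactate from pyruvate, had 2860 and 2660 CPM in organoid cells, against 734 to 1192 CPM in YFP cells, a log2 fold change of 1.43. Gpi1, which acts just after hexokinase, was counted in 77.5% of the wells of both organoid replicates and in 23.5% to 37.5% of YFP wells. The groups stood apart for each of these enzymes. Pkm (2.05), Tpi1 (1.21), Aldoa (2.42) and Pgk1 (1.68, log2 fold changes) also rose, as did the glucose importer Slc2a1 (2.52) and the carbonic anhydrase Car9 (1.87). Hk2, the inducible hexokinase, had 59.5 and 60.1 CPM in organoid cells and 21.5 to 59.6 CPM in YFP cells, short of the threshold (adjusted p = 0.11). The importer of lactate, Slc16a1, and the stress gene Ddit4 did not pass either (adjusted p = 0.080 and 0.48). Gapdh and other glycolytic genes have many processed pseudogenes, so their counts are uncertain where reads could be split among copies.

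Metallothioneins and the transporters of iron, zinc and calcium formed the next group, with 10 of 16 tested genes higher in organoid cells and none lower (median log2 fold change 1.39). Mt1 had 5267 and 4662 CPM in organoid cells, against 261, 320, 246, 278 and 231 CPM in the YFP plates (log2 fold change 4.22, SE 0.15, edgeR's adjusted p = 5.30e-08). Mt2 had 4057 and 3740 CPM in organoid cells, against 46.3, 106, 47.3, 51.1 and 40.3 CPM in YFP cells (log2 fold change 6.04, SE 0.30, adjusted p = 2.65e-07). The rise was spread over nearly all organoid cells: Mt1 was counted in 90.9% and 91.9% of organoid wells, against 29.4% to 34.6% of YFP wells after thinning. Slc30a10, an exporter of manganese, had 82.6 and 57.0 CPM in organoid cells and at most 6.53 CPM in YFP cells, a log2 fold change of 4.38. S100g, the calcium carrier calbindin of enterocytes, had 591 and 488 CPM in organoid cells, against 16.5 to 34.4 CPM in YFP cells (4.40). The iron importer Slc11a2 (2.32) and the iron exporter Slc40a1 (3.17) rose too. The ferritin heavy chain gene Fth1 had 8239 and 4569 CPM in organoid cells, against 2042 to 3357 CPM in YFP cells (log2 fold change 1.15). Without organoid replicate 1 the value of Fth1 was 0.67 and did not pass (adjusted p = 0.064). The zinc importer Slc39a4 had 73.9 and 59.5 CPM in organoid cells and 62.1 to 147 CPM in YFP cells, and its difference did not pass (adjusted p = 0.072).

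Genes of detoxification rose together. Of 28 genes for drug-metabolising enzymes and exporters, 23 were higher in organoid cells and none lower, with a median log2 fold change of 2.36. Cyp2c29, a cytochrome P450 best known from mouse liver, had 1082 and 328 CPM in organoid cells, against 2.65, 5.07, 14.7, 0 and 1.61 CPM in YFP cells (log2 fold change 7.05, SE 0.55, edgeR's adjusted p = 6.99e-06). Organoid replicate 1 was the higher of the 2, and leaving it out gave 5.93. Gsta1, a glutathione transferase, had 3131 and 1202 CPM in organoid cells, against 91.3, 76.0, 93.0, 3.65 and 61.3 CPM in YFP cells (log2 fold change 4.97, or 4.11 without organoid replicate 1). Cyp2b10, a classic target of the xenobiotic receptor Car, rose by a log2 fold change of 4.61, Cyp3a11, a target of the receptor Pxr, by 2.23, and Adh1, an alcohol dehydrogenase, by 2.02. Gsta2 had 103 and 53.9 CPM in organoid cells and 2 counts in all YFP plates, so only the ratio of summed counts is given, 129 (exact 95% interval 35.6 to 1072, counting error only). The Cyp2c and Gsta genes are families of close copies, and values of single members are uncertain where the counting split their reads. Genes of the Nrf2 pathway, which protects against oxidative stress, rose in 17 of 23 cases with none lower, at a median of 0.81, and in 10 cases without organoid replicate 1. Those that rose include Srxn1 (1.62) and Nqo1 (1.24), while Gpx2 had 530 and 556 CPM in organoid cells against 617 to 687 CPM in YFP cells and did not pass (adjusted p = 0.19).

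All 24 tested genes of the cholesterol list were higher in organoid cells, with a median log2 fold change of 1.69. These genes are switched on together by the factor Srebp2 when a cell lacks sterol. Hmgcs1, which makes the precursor of mevalonate, had 679 and 726 CPM in organoid cells, against 180, 166, 132, 157 and 245 CPM in YFP cells (log2 fold change 1.99, SE 0.20, edgeR's adjusted p = 3.95e-05). For each of the 24 genes, both organoid values lay above every YFP plate. The smallest change was that of the isomerase gene Ebp, with 132 and 153 CPM in organoid cells against 84.0 to 111 CPM in YFP cells (0.50, adjusted p = 0.044). The squalene epoxidase Sqle (1.43), the sterol sensor Insig1 (2.80) and Srebf2, which encodes Srebp2 itself (1.27), rose by more. Scd1, which puts a double bond into fatty acids, had 160 and 195 CPM in organoid cells, against 2.65, 1.27, 1.63, 0 and 4.84 CPM in YFP cells (log2 fold change 6.20, SE 0.30).

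**Figure D2:**
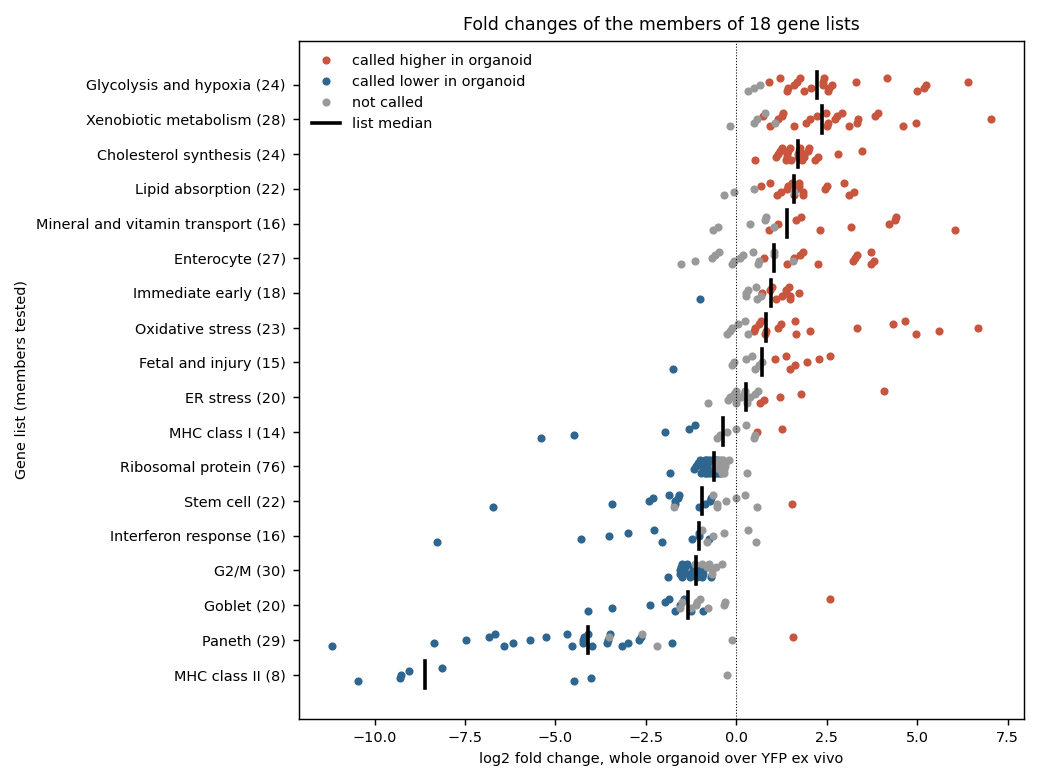
Log2 fold change, organoid over YFP cells, of each tested member of 18 gene lists, with the list median as a bar. Class II and other genes without counts in a group are shown at their fitted value, which is no bound. All members of cholesterol synthesis lie above 0, the medians of glycolysis and xenobiotic genes lie at 2.22 and 2.36, and MHC class II and Paneth genes lie far below 0.

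Mature enterocyte genes were higher in organoid cells, though not as a block. Of 27 core genes of the brush border and of sugar uptake, 12 rose and none fell (median log2 fold change 1.03), and 8 rose and 3 fell without organoid replicate 1. The glucose carrier Slc5a1 had 3048 and 1072 CPM in organoid cells, against 91.3 to 290 CPM in YFP cells (log2 fold change 3.28, or 2.33 without organoid replicate 1). The fructose carrier Slc2a5 (3.81), the sucrase gene Sis (3.34) and the alkaline phosphatase Alpi (3.72) moved by similar amounts. Fabp2, the intestinal fatty acid binding protein, had 1428 and 718 CPM in organoid cells, inside the range of 416 to 1792 CPM in YFP cells. The peptide carrier Slc15a1 had 6.49 and 3.72 CPM in organoid cells and 0 to 26.5 CPM in YFP cells, and the lactase gene Lct 81.1 and 9.29 CPM in organoid cells and 3.65 to 94.0 CPM in YFP cells, and neither passed. Organoid replicate 1 was higher than replicate 2 for most of these genes.

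Genes of fat absorption and lipoprotein assembly rose in 18 of 22 cases, none fell, and the median log2 fold change was 1.59. Without organoid replicate 1, 11 rose. Apoa4 had 2895 and 2003 CPM in organoid cells, against 639, 470, 744, 40.2 and 232 CPM in YFP cells (log2 fold change 2.51, SE 0.59, edgeR's adjusted p = 0.0097). YFP plate 4 was the lowest. Fabp1, the liver-type fatty acid binding protein, had 3537 and 1336 CPM in organoid cells, against 146 to 1067 CPM in YFP cells (1.84, edgeR's adjusted p = 0.019). Its log2 fold change was 0.97 without organoid replicate 1, and it did not pass with the alternative method DESeq2 (1.87). Apoa1 had 2250 and 1286 CPM in organoid cells, against 1007, 665, 894, 36.5 and 280 CPM in YFP cells. Its groups did not overlap, but it did not pass (adjusted p = 0.10). Without YFP plate 4 it did (1.31, adjusted p = 0.034). The acyltransferases Dgat2 (2.46) and Mogat2 (1.85), which build triglyceride, and Mttp (1.73), which loads it onto lipoproteins, rose. Of 21 genes of ketone and fatty acid oxidation, 7 rose and 1 fell, and 3 rose without organoid replicate 1. The one that fell was Cpt1a, the gate of mitochondrial fat burning, with 56.6 and 52.7 CPM in organoid cells against 122 to 158 CPM in YFP cells (-1.36, adjusted p = 2.2e-04).

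Paneth cell products were lower in organoid cells. Paneth cells sit between the stem cells and release antimicrobial peptides. Their 31 listed genes summed to 2051 and 7772 CPM in organoid cells, against 17044, 69932, 80554, 66094 and 39682 CPM in YFP cells. Of 29 tested, 24 were lower in organoid cells, against 12.1% of all genes, and 1 was higher, with a median log2 fold change of -4.10. Here, as for all markers in summed wells, fewer cells of a type and less RNA per cell cannot be told apart. The alpha-defensin gene Defa24 had 146 and 2156 CPM in organoid cells, against 3023, 13415, 16444, 11605 and 7034 CPM in YFP cells (log2 fold change -3.16, SE 0.91, edgeR's adjusted p = 0.024). Lyz1, the Paneth lysozyme, had 22 and 789 CPM in organoid cells, against 2144, 7760, 8519, 8526 and 5108 CPM in YFP cells (-3.99, SE 1.07, adjusted p = 0.018). Both organoid replicates were below all plates, and replicate 1 was far below replicate 2. Without organoid replicate 2 the log2 fold changes were -6.13 for Defa24 and -8.17 for Lyz1, and without organoid replicate 1 they were -2.25 and -3.02. With the organoid plates as units neither passed (-1.90, adjusted p = 0.29, and -2.42, adjusted p = 0.19), nor did either pass within wells of at least 5 enterocyte counts (-2.18, adjusted p = 0.28, and -2.07, adjusted p = 0.30). Thinned to 1500 counts per well, Defa24 did not pass (-2.45, adjusted p = 0.058). The number of Paneth genes lower, 24 in the full comparison, was 14 with plates as units and 13 when thinned. Within wells of at least 5 enterocyte counts, 5 of 19 tested were lower, against 10.1% of all genes there. In wells with fewer than 5 enterocyte counts, 22 of 26 tested were lower (median -3.49), against 4.02% of all genes there.

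Some Paneth genes were nearly missing from the unsorted organoid cells. The defensin-like gene Gm14851 had 2.16 and 3.72 CPM in organoid cells, against 2077, 9731, 9434, 6714 and 6017 CPM in YFP cells (log2 fold change -11.19, SE 0.81, edgeR's adjusted p = 3.81e-06). AY761184, another defensin, had 1.08 and 61.9 CPM in organoid cells and between 2014 and 14270 CPM in YFP cells, a log2 fold change of -8.35. Gm15284 had 5.05 and 1144 CPM in organoid cells, against 1723 to 9461 CPM in YFP cells, and did not pass (adjusted p = 0.071), though it did when either organoid replicate was left out (-2.51, adjusted p = 0.034, without replicate 1, and -10.29, adjusted p = 5.6e-05, without replicate 2). Defensin genes are near-identical copies, so the split of reads among them is uncertain, and the effect on their sum was not tested. Wells with at least 75 Paneth counts among 1500 made up 0.362% and 1.91% of organoid wells and 1.25%, 11.5%, 12.2%, 5.71% and 5.88% of YFP wells. Counts of Defa24 were far more widespread, found in 0.725% and 24.9% of organoid wells and in 51.2% to 83.8% of YFP wells. When the Paneth-rich wells were left out, 12 of 17 Paneth genes still tested were lower in organoid cells and 3 were higher, with a median of -2.67. Free RNA in the wells as a source of these low counts was not tested. The member that rose was Guca2b, a secreted peptide that enterocytes make too, with 1487 and 631 CPM in organoid cells against 241 to 467 CPM in YFP cells (1.58).

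Goblet cell genes were lower in 10 of 20 cases and higher in 1, with a median log2 fold change of -1.34, with 5 lower without organoid replicate 1 and 18 lower without organoid replicate 2. Muc2, the gel-forming mucin, had 6.85 and 51.4 CPM in organoid cells, against 363, 694, 656, 245 and 414 CPM in YFP cells (-4.11, SE 0.68, edgeR's adjusted p = 0.0012). Spink4 fell by 1.55, but did not pass without organoid replicate 1 (-0.80, adjusted p = 0.086) or without YFP plate 1, 2, 3 or 5. Tff3, the trefoil peptide secreted with mucin, had 295 and 1488 CPM in organoid cells and 763 to 2627 CPM in YFP cells and did not pass. Zg16 had 5.05 and 628 CPM in organoid cells and 106 to 795 CPM in YFP cells. For Tff3 and Zg16 only organoid replicate 1 lay below the YFP plates. Atoh1, the factor that commits cells to the secretory lineage, had 0.721 and 6.81 CPM in organoid cells, against 25.1, 31.7, 24.5, 0 and 27.4 CPM in YFP cells (-2.87), and Spdef, which drives goblet and Paneth maturation, fell by 1.25. Without organoid replicate 1 none of the 12 tested genes of the Notch and secretory fate list passed as lower, against 3 with it.

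Enteroendocrine transcripts were abundant in 1 passage and scarce in the other. Chgb, a granin of hormone granules, had 1721 and 1.86 CPM in organoid cells, against 69.7 to 770 CPM in YFP cells. Chga had 397 and 0 CPM in organoid cells and 5.07 to 151 CPM in YFP cells, and Reg4 had 1362 and 100 CPM in organoid cells and 327 to 627 CPM in YFP cells. Organoid replicate 1 was above and organoid replicate 2 below all YFP plates for all 3, so the pooled differences did not pass. Without organoid replicate 1, 6 of the endocrine genes were lower and none higher, and without organoid replicate 2, 9 were higher. Of 14 endocrine genes tested, 1 rose and none fell: Insm1, a factor of endocrine precursors, had 57.7 and 21.7 CPM in organoid cells, against 9.79 to 29.2 CPM in YFP cells (1.23, edgeR's adjusted p = 0.045). No endocrine gene was higher without YFP plate 1, 2 or 3, without wells above 50000 counts or without Paneth-rich wells. Hormone genes were patchy among YFP plates too. Of 7 tested, 3 were lower in organoid cells and none higher (median -2.19), and 1 was lower without YFP plate 4. The listed hormone genes summed to 234 and 7.43 CPM in organoid cells, against 229 to 1671 CPM in YFP cells, with overlap. Sst, somatostatin, had 0 and 0.619 CPM in organoid cells, against 1.32, 69.7, 620, 698 and 1.61 CPM in YFP cells, and Gip was at 0 in both organoid replicates and at 1.32, 878, 6.53, 391 and 0 CPM in YFP cells. Both passed as lower, but not when either organoid replicate was left out. Of 6 tuft cell genes, 1 fell (16.7%, near the 12.1% of all genes). It was Cd24a, which other crypt cells also express, with 235 and 232 CPM in organoid cells, against 413 to 633 CPM in YFP cells (-1.03). Dclk1, the usual tuft marker, had 3.97 and 0.619 CPM in organoid cells and 14.6, 0, 55.5, 0 and 1.61 CPM in YFP cells and did not pass.

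MHC class II, which presents peptides to helper T cells and is made by crypt epithelium in the gut, was at or near 0 in organoid cells. Of 8 class II genes tested, 7 fell and none rose. H2-Eb1 had no count in either organoid replicate, against 222, 136, 171, 113 and 174 CPM in YFP cells, and was at least 239-fold lower. Cd74, the invariant chain, had 0.361 and 0 CPM in organoid cells, against 341, 204, 246, 186 and 103 CPM in YFP cells. This was 1 count in the culture, so only the ratio of summed counts is given, 985 (exact 95% interval 176 to 38952). H2-Aa had 0.361 and 0 CPM in organoid cells, against 225, 134, 224, 113 and 206 CPM in YFP cells, also 1 count in all organoid wells. Every YFP plate expressed these genes, and H2-Aa was counted in up to 31.2% of the wells of a YFP plate after thinning and in none of the organoid wells. The peptide loader H2-DMa had 2.52 and 4.96 CPM in organoid cells, against 47.5 to 70.2 CPM in YFP cells (log2 fold change -4.01, SE 0.33, edgeR's adjusted p = 1.0e-05). Ciita, the master activator of class II genes, had 2 counts in organoid cells and 8.06 to 21.9 CPM in YFP cells. The median of the fitted log2 fold changes was -8.59, and -6.74 with the 6 genes at 3 counts or fewer set to their bound or ratio. Ctss, a protease of many cell types, had 84.4 and 35.9 CPM in organoid cells, against 65.9 to 83.4 CPM in YFP cells, and did not pass. Immune cell genes were also higher in YFP cells, by the sums given above, but only 1 of them, Lyz2, entered the test. In YFP plate 4 the sum equalled the level of Lyz2 alone, 87.7 CPM, while Cd74 had 186 CPM and H2-Aa 113 CPM there. The part of immune cells in this result was not tested.

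In class I presentation, subunits of the interferon-inducible proteasome and peptide pump fell, and a heavy chain rose. Psmb8, a subunit of the immunoproteasome, had 5.41 and 1.86 CPM in organoid cells, against 216, 160, 165, 117 and 193 CPM in YFP cells (log2 fold change -5.39, SE 0.37, edgeR's adjusted p = 2.6e-06). Psmb9 (-4.48), Psmb10 (-1.30) and the peptide pump Tap1 (-1.97) fell too. The heavy chain gene H2-K1 rose by 0.58, with 835 and 644 CPM in organoid cells against 424 to 532 CPM in YFP cells, but did not pass without organoid replicate 1 (0.38, adjusted p = 0.20). The light chain gene B2m had 828 and 448 CPM in organoid cells and 628 to 1069 CPM in YFP cells and did not pass. In all, 5 of 14 class I genes fell (35.7%, against 12.1% of all genes). The 2 that rose made up 14.3%, near the 14.1% of all genes. Interferon-response genes fell in 10 of 16 cases, none rose, and their median was -1.02. Ifi47, a guanosine triphosphatase induced by interferon gamma, had no count in organoid cells, against 26.6 to 42.4 CPM in YFP cells, and was at least 52.7-fold lower. Ifitm3, which blocks entry of viruses, had 66.0 and 112 CPM in organoid cells, against 439, 318, 470, 548 and 388 CPM in YFP cells (-2.29, SE 0.27), and Irf1 fell by 1.23.

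Stem cell genes were lower in organoid cells in 13 of 22 cases and higher in 1, with a median log2 fold change of -0.95, and in 8 cases without organoid replicate 1. Igfbp4, which marks stem and early progenitor cells, had 1.08 and 0.619 CPM in organoid cells, against 124, 67.1, 127, 117 and 114 CPM in YFP cells (-6.74, SE 0.42, edgeR's adjusted p = 1.59e-06). Clca4, a channel regulator of the crypt base, had 268 and 303 CPM in organoid cells, against 1096, 866, 1058, 1198 and 1014 CPM in YFP cells (-1.87, SE 0.18). Ascl2, the factor that maintains the stem cell state, fell by 2.31. Lgr5 itself had 27.4 and 59.5 CPM in organoid cells, against 45.6 to 95 CPM in YFP cells. Only replicate 1 lay below the plates, and the difference did not pass (-0.64, adjusted p = 0.15), though it did without organoid replicate 2 (-1.25). Olfm4 had 10.8 and 18.6 CPM in organoid cells, against 29.1 to 67.7 CPM in YFP cells (-1.62), and missed the threshold without organoid replicate 1 (-1.22, adjusted p = 0.058). The YFP label starts from Lgr5 cells, so YFP cells were gated for descent from them, and organoid cells were not gated on any gene.

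Signals that act on the stem cell zone pointed in several directions. Wnt target genes fell in 7 of 15 cases and rose in 2, and fell in 4 without organoid replicate 1. Axin2, a direct target and brake of Wnt signalling, had 28.1 and 65.7 CPM in organoid cells, against 188, 157, 135, 219 and 150 CPM in YFP cells (log2 fold change -1.87, SE 0.31, edgeR's adjusted p = 0.0013). Sfrp5, a secreted Wnt inhibitor, was at 0 in both organoid replicates and at 27.8 to 58.4 CPM in YFP cells, at least 54.2-fold lower. Pdgfa (1.95) and Efnb1 (0.78) were the 2 that rose, and the list does not mark whether Wnt raises or lowers a member. Targets of BMP, the signal that Noggin blocks, fell in 4 of 7 cases, none rose, and 2 fell without organoid replicate 1. Id3 had 25.6 and 65.7 CPM in organoid cells, against 136 to 171 CPM in YFP cells (-1.81), and Bambi and Smad6 fell by 1.87 and 1.67. Targets of the EGF and MAP kinase pathway rose in 4 of 11 cases and fell in 1. Hbegf, an EGF-like ligand, had 108 and 226 CPM in organoid cells, against 29.2 to 48.4 CPM in YFP cells (2.02, SE 0.27, adjusted p = 2.8e-04), and the feedback phosphatase Dusp6 rose by 2.38. Areg had 51.9 and 224 CPM in organoid cells, against 11.0 to 67.5 CPM in YFP cells (1.94, or 0.56 without organoid replicate 2). It did not pass with DESeq2 (2.07), with organoid plates as units (1.56) or within wells of at least 5 enterocyte counts (1.47). The receptor Egfr had 6.49 and 11.8 CPM in organoid cells, against 11.4 to 29.2 CPM in YFP cells, and did not pass (adjusted p = 0.069).

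Fewer transcripts of mitosis were found in organoid cells. Of 30 genes of the G2 and M phases, 22 fell and none rose (median log2 fold change -1.11), and 11 fell without organoid replicate 1. Without organoid replicate 2, all 30 fell. Mki67, the proliferation antigen, had 77.2 and 93.5 CPM in organoid cells, against 224, 234, 194, 332 and 258 CPM in YFP cells (-1.53, SE 0.22, edgeR's adjusted p = 5.3e-04). Ube2c, which helps to end mitosis, had 111 and 164 CPM in organoid cells, against 314 to 432 CPM in YFP cells (-1.37). Of 29 genes of DNA synthesis, 4 were lower and 1 higher, a share lower of 13.8% that is near the 12.1% of all genes, with 2 lower without organoid replicate 1 and 13 lower without organoid replicate 2. Pcna, the clamp of DNA polymerase, had 283 and 323 CPM in organoid cells, against 208 to 343 CPM in YFP cells. Rrm2, a subunit of ribonucleotide reductase, was the 1 higher (0.84), and no gene of the list was higher without organoid replicate 2 or without YFP plate 2, 3 or 4. The difference between the S phase list and the G2 and M list was not tested. Ribosomal protein genes fell in 58 of 76 cases, none rose, and the median was -0.63. They summed to 125448 and 141634 CPM in organoid cells, against 183050 to 230240 CPM in YFP cells. Without organoid replicate 1, 33 fell. Their mRNA has many pseudogene copies, and single values are uncertain.

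Stress genes gave a mixed picture. Immediate early genes, which switch on within minutes of growth factors or handling, rose in 11 of 18 cases and fell in 1 (median log2 fold change 0.96), and 7 rose without organoid replicate 2. Fos had 514 and 950 CPM in organoid cells, against 193, 275, 302, 314 and 247 CPM in YFP cells (1.47, SE 0.23, edgeR's adjusted p = 9.6e-04), and Egr1 had 325 and 407 CPM in organoid cells, against 131 to 164 CPM in YFP cells (1.37). The heat shock gene Hspa1a went the other way, with 1.08 and 2.48 CPM in organoid cells against 111, 119, 66.9, 73.1 and 126 CPM in YFP cells (-5.87, SE 0.42, adjusted p = 3.8e-06), as did its neighbour copy Hspa1b (-2.27). Of 14 heat shock genes tested, 4 were lower in organoid cells (28.6%, against 12.1% of all genes) and none higher. Without YFP plate 1, 2, 4 or 5, 2 were lower. The chaperone genes Hspd1 and Hspe1 were lower too, but neither passed when wells were thinned to 1500 counts (-0.69 and -0.65). Hspd1 also did not pass with organoid plates as units (-0.80) or when any single YFP plate was left out. Hspe1 did not pass without YFP plate 1, 2, 4 or 5. Hspa8 changed little, with 2264 and 1956 CPM in organoid cells and 1968 to 2192 CPM in YFP cells. Among genes of the unfolded protein and integrated stress responses, 5 of 20 rose and none fell. Trib3, a target of the factor Atf4, had 34.6 and 36.5 CPM in organoid cells and at most 3.65 CPM in YFP cells (4.09), and Ddit3 rose by 1.79. Organoids and crypts were dissociated with different enzymes, and the part of this step was not tested.

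Genes linked to fetal gut or to injury repair rose in 7 of 15 cases and fell in 1. Anxa2 had 449 and 511 CPM in organoid cells, against 80.4 to 198 CPM in YFP cells (log2 fold change 1.62, SE 0.26, edgeR's adjusted p = 8.9e-04), and S100a11 rose by 1.48. Ly6e had 45.8 and 99.1 CPM in organoid cells, against 185 to 284 CPM in YFP cells (-1.74). The usual markers Ly6a and Clu were too low to be tested, at 1.08 to 7.43 CPM in organoid cells and at 0 to 3.26 CPM in YFP cells. Of 11 antimicrobial and regenerating genes, 3 rose and 4 fell, and 5 rose without organoid replicate 2. Reg1 had 8804 and 3592 CPM in organoid cells, against 463, 190, 253, 29.2 and 161 CPM in YFP cells (4.79, SE 0.58, adjusted p = 1.4e-04). Reg3g, whose lectin kills Gram-positive bacteria, had 123 and 177 CPM in organoid cells, against 516, 266, 468, 588 and 337 CPM in YFP cells (-1.53, SE 0.30, adjusted p = 0.0036). Reg3b had 319 and 116 CPM in organoid cells and 257 to 614 CPM in YFP cells and did not pass.

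Several RNAs of the nucleus and single genes stood at the ends of the scale. The ribosomal RNA precursor Rn45s had 7842 and 9406 CPM in organoid cells, against 1048, 982, 1253, 1158 and 750 CPM in YFP cells (log2 fold change 3.06, SE 0.18, edgeR's adjusted p = 9.94e-07). The retained nuclear RNAs Malat1 (2.55) and Kcnq1ot1 (2.39) rose as well, while Gas5, a host of small nucleolar RNAs, fell by 0.84 and missed the threshold without organoid replicate 1 (-0.69, adjusted p = 0.087). The part of these RNAs in the other results was not tested. Gas6, a ligand of receptors that clear dying cells, was at 0 in organoid cells and at 53.2 to 98.6 CPM in YFP cells, at least 102-fold lower. Car4, a carbonic anhydrase of the cell surface, was at 0 in organoid cells and at 32.9 to 115 CPM in YFP cells, at least 92.3-fold lower. Cfhr2, related to complement factor H, had 127 and 133 CPM in organoid cells and 1 count in YFP cells, a ratio of summed counts of 394 (exact 95% interval 70.5 to 15605). Igf2bp3, an RNA-binding protein known from fetal tissue, had 29.9 and 33.5 CPM in organoid cells and 0, 7.60, 0, 3.65 and 1.61 CPM in YFP cells (3.54, or 4.98 without YFP plate 2).

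**Figure D3:**
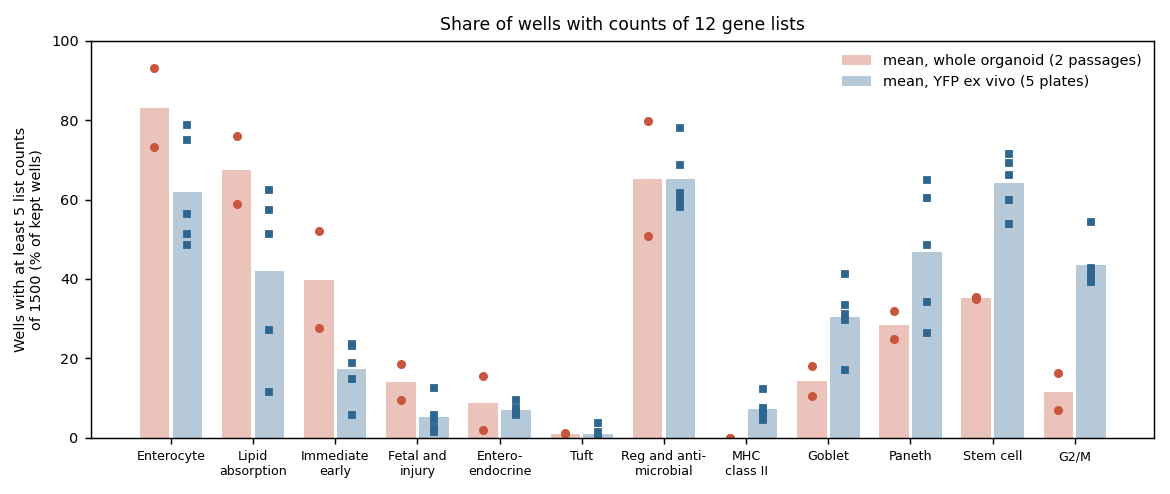
Share of wells with at least 5 of 1500 thinned counts from each of 12 gene lists, for each organoid replicate and each YFP plate. MHC class II is at 0% in both organoid replicates and between 4.41% and 12.2% in YFP plates, and the endocrine share is 15.6% and 1.91% in the organoid replicates.

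The same lists were counted by well. Each well was thinned to 1500 counts, and wells with at least 5 counts of a list were counted. The G2 and M list reached this in 6.88% and 16.3% of organoid wells, against 40.0%, 41.0%, 39.2%, 54.3% and 42.6% of YFP wells. The stem cell list did so in 35.5% and 34.9% of organoid wells, against 53.8% to 71.4% of YFP wells. For the stem cell list 50.7% and 47.4% of organoid wells lay near this limit, with 3 to 7 counts, and the difference between group means of -28.9 percentage points was -16.9 at 3000 counts and -16.0 without thinning. The Paneth list did so in 31.9% and 24.9% of organoid wells, against 26.2% to 64.9% of YFP wells, with overlap. The immediate early list did so in 27.5% and 52.2% of organoid wells, against 5.71% to 23.5% of YFP wells, a difference of 22.7 points that was 7.62 without thinning. For the mitotic, stem cell and immediate early lists and for MHC class II the groups did not overlap, which gives the smallest 2-sided p that an exact permutation test of 2 against 5 profiles can reach, 0.0952, and 0.286 after adjustment over the 12 lists. Enterocyte genes reached 5 counts in 93.1% and 73.2% of organoid wells, against 48.6% to 78.8% of YFP wells, and these groups overlapped (exact permutation p = 0.286). Goblet wells made up 10.5% and 18.2% of organoid wells, against 17.1% to 41.2% of YFP wells. Wells of the tuft list were rare, at 1.09% and 0.957% of organoid wells and 0% to 3.75% of YFP wells.

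**Figure D4:**
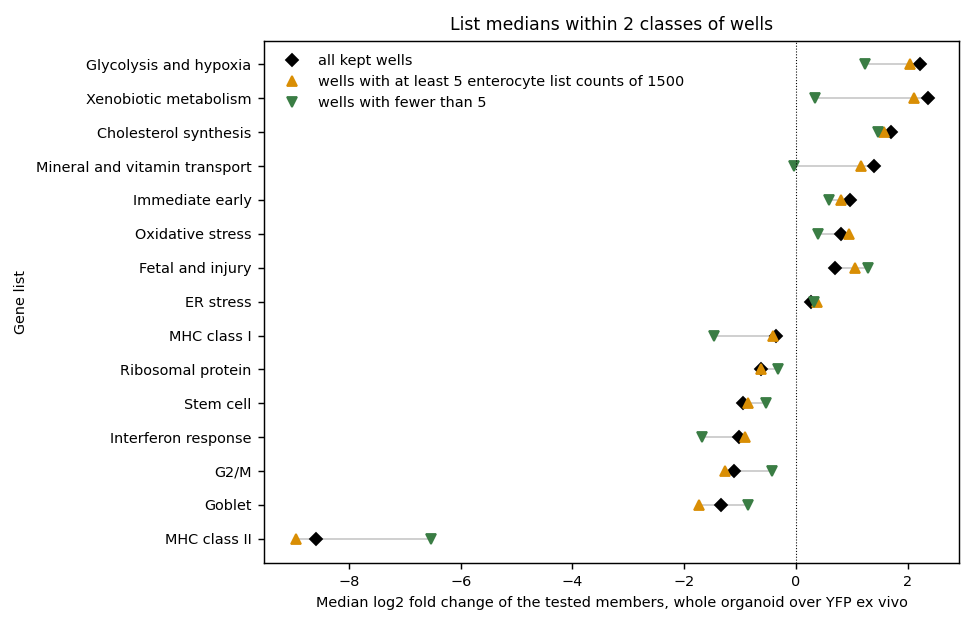
Median log2 fold change, organoid over YFP cells, of 15 gene lists in all kept wells, in wells with at least 5 enterocyte counts among 1500 and in the other wells. Cholesterol synthesis lies at 1.69, 1.57 and 1.47 and MHC class II at -8.59, -8.95 and -6.53 in these 3 sets, while xenobiotic genes lie at 2.36, 2.11 and 0.34.

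The comparison was repeated within wells split by their enterocyte counts, a split chosen after the data were seen. It is a cut through a range and not a cell type, and 37 and 49 organoid wells and 17 to 44 wells of each YFP plate lay near it, with 3 to 7 counts. Wells with at least 5 enterocyte counts numbered 257 and 153 in the organoid replicates and 63, 44, 38, 17 and 51 in the YFP plates. Within them 11.9% of 6916 genes tested were higher and 10.1% lower. The main groups changed as before: cholesterol synthesis rose in 22 of 24 cases, glycolysis and hypoxia in 21 of 24, and xenobiotic genes in 21 of 28, while class II genes fell in 6 of 7 cases, mitotic genes in 21 of 29 and ribosomal protein genes in 54 of 75. The other wells were few in culture, 19 and 56, against 17, 34, 36, 18 and 17 in YFP plates. There, cholesterol synthesis rose in 20 of 23 cases and class II genes fell in 6 of 7. Glycolysis and hypoxia rose in 12 of 18 cases (median 1.23). Over all 5620 genes tested in these wells, 3.49% were higher and 4.02% lower. Xenobiotic genes rose in 5 of 17 cases and fell in 1 (median 0.34), mitotic genes fell in 3 of 27 (median -0.43) and ribosomal protein genes in 6 of 75 (median -0.33). The difference between these kinds of wells was not itself tested, and fewer wells and genes entered the second one.

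A separate pair of sorted samples holds the same contrast for stem cells: 1 library of Lgr5-positive cells sorted from organoids of an Lgr5-GFP-DTR mouse and 2 plates of Lgr5-EGFP cells sorted from intestine, with 233 kept wells. It shares no sample with the comparison above, has 1 library in culture and so carries no test. Levels are log2 ratios of CPM plus 5. MHC class II was at 0 there as well for H2-Aa in cultured cells, against 640 and 536 CPM in intestinal cells, and all 8 class II genes were lower. Psmb8 had 3.39 CPM in cultured cells, against 292 and 318 CPM in intestinal cells. Glycolysis and hypoxia genes were higher in 21 of 24 cases (median 0.92) and cholesterol genes in 21 of 24 (median 0.45), against 32.8% of all 8808 genes. Mt2 had 725 CPM in cultured cells, against 95.1 and 143 CPM in intestinal cells. Goblet genes were lower in 19 of 20 cases, interferon-response genes in 15 of 16 and class I genes in 13 of 14. Xenobiotic genes were higher in 18 of 28. Paneth genes were lower in 21 of 29 cases and higher in 8, where 66.8% of all genes were lower. Gm14851 had 397 CPM in cultured cells, against 42.0 and 3095 CPM in intestinal cells. AY761184 had 767 CPM in cultured cells, against 1878 and 3876 CPM in intestinal cells, and Defa24 had 4635 CPM, against 2726 and 4847 CPM. Some other groups did not keep their direction. Ribosomal protein genes were higher in 74 of 76 cases, G2 and M genes in 21 of 30, and immediate early genes were lower in 16 of 18. Stem cell genes were higher in 11 of 22 cases and lower in 11, and Wnt target genes were higher in 7 of 15 and lower in 8. Igfbp4 had 179 CPM in cultured cells, against 237 and 287 CPM in intestinal cells. Ascl2 had 161 CPM in cultured cells, against 96.2 and 132 CPM in intestinal cells. Reg1 was at 0 in cultured cells, against 115 and 64.7 CPM in intestinal cells, and Rn45s had 1245 CPM in cultured cells, against 4521 and 4020 CPM in intestinal cells. Of all genes that rose in unsorted organoid cells, 44.2% were higher in the cultured Lgr5 cells, against 32.8% of all genes, and of those that fell, 62.4% were lower, against 66.8% of all genes.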

How the data were processed

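Cells were sequenced by CEL-seq. Each primer carried a 4-base random barcode, per the labels' protocols. Reads were mapped with BWA 0.6.2-r126 to mm10 (GRCm38), per the submitters' processing notes. The deposited estimated counts are transcript numbers that the authors corrected for barcode collisions. Of 2459344 values above 0, 2459328 turn back into whole barcode numbers out of 256 (within 1e-06), and 16 are saturated. The estimated counts were rounded per gene and well. The 92 spike-in rows stayed out of totals. No mitochondrial genes were analysed here. Wells 49 to 96 of YFP plate 4 hold other samples, per the series' design text, and are not in the table used.

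Kept wells (at least 1500 counts) were summed per organoid passage and per YFP plate. edgeR 4.0.16 in R 4.3.3 tested 8808 genes of 23538 by quasi-likelihood, with TMM scaling and filterByExpr, over 2 against 5 profiles, without a replicate block. The common coefficient of variation was 0.209. CPM are counts in 1000000 of the scaled library. Exact intervals cover counting error only. On simulated counts for this comparison (8507 genes), the test called 24 of 50 genes raised 2-fold, 25 of 50 lowered 2-fold, 49 of 50 raised 4-fold and 48 of 50 lowered 4-fold, with 8 false calls. DESeq2 1.42.0 was an alternative. Shares of wells used an exact 2-sided permutation test, with Python 3.11.15 and scipy 1.17.1. Promoters came from RefSeq. No 2 kept wells were identical.

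Genes were named by rule: the 12 largest rises and falls among called genes with at least 50 CPM and no overlap, the 4 most abundant members of each list, the 6 most abundant genes of each group and a fixed list of markers. Other list members given as examples were chosen after their values were seen. The comparison, the members and the gene lists were chosen with earlier results of these data known. Results for some genes are not reported here.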

Additional observations from a re-analysis of the deposited data

Results flagged for a closer look

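Among 175 named genes with a count in YFP cells, 19 had 1 YFP plate far from the other 4, by a gap rule that chance meets in about 1 in 20 groups. Organoid replicates were too few for this rule. No pattern is explained here.

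Plate 5 was high for Afp (38.7 CPM), Atf4 (434), Fabp6 (221), Hspa5 (467) and Txn1 (1799) and low for Zfp703 (72.5). Plate 3 was high for Ghrl (1018 CPM), the hormone ghrelin, and for Dclk1 (55.5), Gm15292 (359), Id2 (49.0) and Hba-a1 (1.63). Plate 4, with the fewest wells, was low for Adh1 (453 CPM), Gstm1 (95) and Clu (0) and high for Lyz2 (87.7). Plate 2 was high for Mt2 (106 CPM) and Ctrb1 (1.27) and low for Igfbp4 (67.1), and plate 1 was high for Cfhr2 (1.32). For Ctrb1, Cfhr2 and Hba-a1 the value is that of a single count. Mt2 in organoid cells was at 4057 and 3740 CPM, against the 106 CPM of the highest YFP plate, and Igfbp4 at 1.08 and 0.619 CPM, against the 67.1 CPM of the lowest.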

How the results depend on the processing

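The main counts, 1246 higher and 1062 lower, became 812 and 621 when organoid replicate 1 was left out. Then 1 organoid profile remained, assumed to vary like the YFP plates. Over all profiles left out in turn, 812 to 1307 genes were higher and 621 to 1069 lower. Thinning every well to 1500 counts left 2792 genes tested, 369 higher and 251 lower. With organoid plates as units, 840 and 666 were called. The replicate numbers shared by the groups (1 and 2) only name passages and plates, with correlations of deviations of 0.159 and 0.067. With them as a replicate block, 856 and 692 were called. Within wells of at least 5 enterocyte counts 822 and 696 were called, in the other wells 196 and 226, and without Paneth-rich wells 1204 and 1013. DESeq2 gave 963 and 814. Upper-quartile scaling moved the median of all genes by -0.095 and gave 1035 higher and 1317 lower. Counts of list members called moved beyond a set fold limit in 39 cases when wells were thinned to 1500 counts, and stayed within it in 45. They moved in 22 cases and stayed in 62 with the replicate block, and 12 and 72 with organoid plates as units. With DESeq2 they moved in 5 and stayed in 79. Not all of these are given beside the lists. Among those with DESeq2, fetal and injury genes were higher in 4 cases, against 7.

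In wells with fewer than 5 enterocyte counts, 147 of 1522 genes called in all wells and tested there changed sign. Reversed values of named genes and lists follow. With profiles left out, Chgb lay between -7.38 and 2.36 and Reg4 between -2.14 and 1.62, the lowest without organoid replicate 1. In wells with fewer than 5 enterocyte counts, Apoa4 was at -0.14, Ccnd1 at 0.14, Fth1 at -0.67, H2-K1 at -0.43 and Ucp2 at -0.033. Differences in shares of wells turned round for the endocrine list (between -5.08 and 8.59 percentage points with profiles left out, the lowest without organoid replicate 1). For the tuft list they were -7.19 without thinning, -3.30 at 3000 counts and between -0.253 and 0.684 with profiles left out. For enterocyte genes the difference was -1.16 without thinning. For the regenerating list it was between -14.5 and 14.4 with profiles left out. The causes were not tested. Organoid replicate 2 had the shallowest wells. Keeping wells 49 to 96 of YFP plate 4 was not run.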

Other observations

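Of 18 factors of gut region and epithelial identity tested, 2 were higher in organoid cells (11.1%) and 3 lower (16.7%), near the 14.1% and 12.1% of all genes. Onecut2, a homeobox factor of the small intestine, had 329 and 297 CPM in organoid cells, against 139 to 180 CPM in YFP cells (log2 fold change 1.02, SE 0.16, edgeR's adjusted p = 7.9e-04). It did not pass with organoid plates as units (0.70, adjusted p = 0.36) or in wells with fewer than 5 enterocyte counts (0.34, adjusted p = 0.44). Hnf4g, a nuclear receptor of enterocytes, rose by 1.03. Osr2 fell by 2.29 and Isx, a repressor of vitamin A uptake genes, by 1.18. Groups did not overlap for any of these 4 factors.

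Of 16 genes of matrix, adhesion and the cytoskeleton, 5 were higher (31.2%) and 2 lower (12.5%), against 14.1% and 12.1% of all genes, and 3 were higher without organoid replicate 2 or with DESeq2. Itga3, a laminin receptor subunit, had 54.1 and 67.5 CPM in organoid cells, against 14.6 to 31.8 CPM in YFP cells (1.27), and the laminin chains Lamb3 (1.36) and Lamc1 (1.19) were higher too. Cd44, a hyaluronan receptor of crypt cells, fell by 0.97. The actin-binding thymosins moved apart: Tmsb10 had 1121 and 1404 CPM in organoid cells, against 478 to 667 CPM in YFP cells (1.22), while Tmsb4x had 1008 and 1179 CPM in organoid cells, against 2069 to 2344 CPM in YFP cells (-0.99). The members of both lists were chosen with earlier results known, and the genes named were picked from those that passed.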
